A study of Mus musculus with 4 samples.

Results

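Insertions and deletions (indels) with a net length of exactly 1 base were examined in exomes of c-Kit-positive leukaemia cells. A one-base indel counted as a member when it lay on an autosome and both callers, SpeedSeq and VarScan2, listed it at the same position with the same alleles after shared bases were trimmed. The limits for each caller were a depth of 10 or more, 3 or more variant reads and an allele fraction (in SpeedSeq, variant reads divided by depth) of 0.10 or more, and SpeedSeq also had to give a quality of 20 or more. The set held 4315 distinct sites out of 58350 sites of all variants that passed the same filter (51317 SNVs, or single-nucleotide variants, and 7033 indels). The 4 samples held 2073, 2252, 2128 and 1646 of them in the order of their replicate numbers (mean 2025 ± 263, SD, n = 4).

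All 4 samples came from bone marrow of moribund C57BL/6-background mice that carried Nras-G12D and had lost Ezh2, a genotype labelled E2-KO that every sample shares. The study as analysed here has no control group and no matched normal tissue, so somatic and inherited indels cannot be told apart. Animals carry no numbers in the labels, and the samples are named replicates 1 to 4 in listed order; a spread between them may be technical in part. The files hold DNA variants and no expression, so the c-Kit label was not checked against marker genes. The driver or cell type of the Ezh2 deletion is not given in the sources used here.

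One-base indels arise mostly where the same base is repeated in a row, a homopolymer run. A DNA polymerase can slip on such a run and add or drop a base, and the mismatch repair proteins normally remove the resulting loop. Amplification and sequencing enzymes slip on the same runs. Inside a coding exon a one-base indel shifts the reading frame; in an intron or between genes it does not.

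The reference alleles written by SpeedSeq span the whole run at every member, so the run can be read directly. The first set below shows the kind of site that makes up the long-run members, named by the gene body in which each lies, on the forward strand of mm10 and with the run of the gained or lost base in capitals.
Nf1, chr11:79412647-79412688, a base gained in replicate 3 and a base lost in replicate 2: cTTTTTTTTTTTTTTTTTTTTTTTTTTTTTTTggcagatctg
Idh1, chr1:65159391-65159416, a base gained in replicates 1, 3 and 4 and a base lost in replicate 2: tAAAAAAAAAAAAAAAAtacgtaaac
Ep300, chr15:81623553-81623575, a base gained in replicates 1, 2 and 4: aTTTTTTTTTTTTTTTaaacatg
Prmt3, chr7:49848469-49848492, a base lost in replicate 4: gTTTTTTTTTTTTTTTTacatcac
Idh2, chr7:80095549-80095565, a base lost in replicate 4: tGGGGGGGGGGGGttcc
Cebpa, chr7:35121102-35121120, a base lost in replicate 2: tCCCCCCCCCCCCactcag
The contrasting set holds short-run members that were confident in all 4 samples and lie just upstream of a gene start, where RefSeq promoter sequence of GRCm38.p6 gives the neighbouring bases. Capitals again mark the run.
N4bp3, chr11:51651108-51651131, a base gained: tcctccaactcGGGcctcgcccgc
Gm14199, chr2:152991676-152991701, a base lost: ggctgtgtcgtCCCCCgccctctgag
Arpp19, chr9:75037573-75037594, a base gained: gggagggggaaCacagcgccac

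Insertion and deletion, or gain and loss, are named here against the mm10 reference allele and do not give the direction of a mutation. Deletions outnumbered insertions in every sample. There were 887 insertions and 1186 deletions in replicate 1, 996 and 1256 in replicate 2, 916 and 1212 in replicate 3, and 686 and 960 in replicate 4. This is 1.33 ± 0.0568 deletions per insertion (SD, n = 4). In the same order, insertions made up 42.8% (exact 95% binomial interval 40.6 to 45.0), 44.2% (42.2 to 46.3), 43.0% (40.9 to 45.2) and 41.7% (39.3 to 44.1) of members. The 4 values lie within 3 percentage points of each other and all below 50%. These intervals describe counting error over sites alone, and they treat the sites of a sample as independent.

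The mean insertion share of 42.9% ± 1.05 (SD, n = 4) was lower than 50% in 4 of 4 samples. In runs of at most 7 bases, a limit added after the data were seen, it was 47.9%, 51.0%, 50.8% and 46.7% and so on both sides of 50%; that class includes bases gained outside any run, which have no matching loss, and without them it was 43.2%, 45.9%, 45.8% and 41.9%. An exact two-sided sign-flip permutation test over the 4 samples gave p = 0.125, which is the smallest p that 4 samples allow, and an adjusted p of 0.177 over the 17 tests made; the design therefore cannot pass 0.05. The same p and adjusted p hold for each of the 12 tests in which all 4 samples lay on one side. The samples also share inherited sites and are not fully independent. Among indels that passed the same filter, those of 2 bases or more that are no multiple of 3 had an insertion share of 41.3% ± 1.15, and those in multiples of 3 a share of 43.6% ± 2.94. The one-base share differed from these by 1.62 ± 1.61 and by -0.637 ± 3.65 percentage points (exact sign-flip permutation p = 0.25 and 1.0), and the differences did not lie on one side in all samples.

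A and T were gained or lost more often than C and G. Adenine was gained at 303, 348, 316 and 234 sites in replicates 1 to 4 and lost at 375, 412, 365 and 270. Thymine was gained at 319, 369, 323 and 262 sites and lost at 373, 399, 380 and 290. Both bases of the A-T pair were thus near equal on the forward strand. Cytosine was gained at 135, 149, 135 and 87 sites and lost at 201, 192, 212 and 178, and guanine was gained at 130, 130, 142 and 103 and lost at 237, 253, 255 and 222.

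Together A or T made up 66.1%, 67.9%, 65.0% and 64.2% of members (mean 65.8% ± 1.59, SD, n = 4), above 50% in 4 of 4 samples. In runs of at most 7 bases the share was 51.7%, 55.4%, 52.4% and 54.1%, which is 3.38 ± 1.69 points above 50% where all members lay 15.8 ± 1.59 above. The base composition of the captured regions was not measured here, so 50% is only a mark. Insertions held more A or T than deletions in every sample. The share was 70.1%, 72.0%, 69.8% and 72.3% in insertions and 63.1%, 64.6%, 61.5% and 58.3% in deletions, a mean difference of 9.18 ± 3.23 percentage points. Seen the other way, the insertion share was 46.4% ± 0.740 of A or T members and 36.4% ± 2.86 of C or G members, and the ranges over the 4 samples do not overlap.

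Members fell into short and long runs of the changed base. Run length here counts the bases of the reference run, so an inserted base that matches no neighbour to its right has a run of 0 and an isolated lost base a run of 1. On average 44.4% ± 1.59 of a sample's members lay in runs of 5 bases or fewer and 29.9% ± 1.65 in runs of 12 or more. The median run was 6, 7, 6 and 7 bases in replicates 1 to 4. It was 9 bases in every sample for A or T and 3 to 4 bases for C or G. These shares varied little between the samples.

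**Figure D1:**
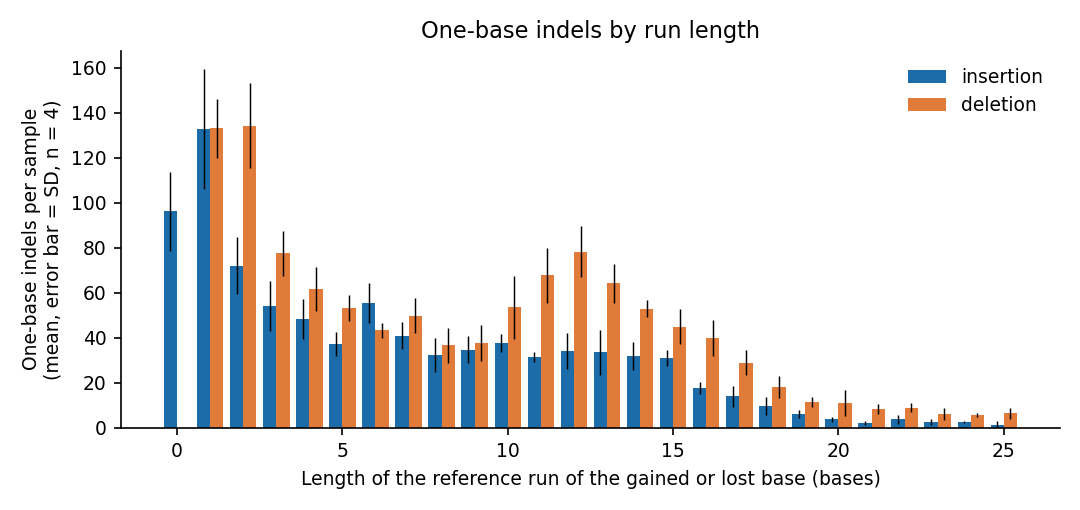
Mean number of one-base indels per sample (y axis; error bar, SD over 4 samples) against the length in bases of the reference run of the gained or lost base (x axis), up to a run of 25. Insertions and deletions both peak at the shortest runs, and deletions show a second rise at runs of about 12 bases.

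The balance of gain and loss changed with the run. In runs of 0 to 2 bases insertions made up 51.1%, 54.9%, 55.1% and 49.9% of members in replicates 1 to 4. A run of 0 can hold only insertions by its definition (95, 111, 107 and 72 of them), which raises these shares. Without it, runs of 1 and 2 bases had 41.9%, 44.9%, 45.7% and 40.1%. In runs of 15 or more insertions made up 31.4%, 32.3%, 29.6% and 35.1%, and this range does not overlap that of runs of 1 and 2 bases. The share did not fall steadily between these classes. Its mean was 41.9% in runs of 3 to 5 bases, 49.8% in runs of 6 to 8, 39.8% in runs of 9 to 11 and 33.5% in runs of 12 to 14. These run classes were drawn after the data were seen and are described without a test.

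The excess of loss was greatest for C and G runs. In C or G runs of 9 bases or more, the samples held 20, 26, 14 and 28 insertions against 113, 158, 159 and 160 deletions, an insertion share of 13.0% ± 3.32 (SD, n = 4). In A or T runs of that length there were 281, 328, 276 and 234 insertions against 440, 476, 435 and 316 deletions, a share of 40.3% ± 1.76. At runs of 1 to 5 bases, which leave out the run of 0, the shares were 37.7% ± 3.56 for C or G and 47.2% ± 1.69 for A or T. For each base pair the short-run and long-run ranges over the 4 samples do not overlap. Over distinct sites, 372 of 432 C or G members in runs of 9 or more were losses. The deletions in Cebpa, a transcription factor gene of myeloid differentiation, and Idh2, a mitochondrial isocitrate dehydrogenase gene, printed above are of this kind.

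**Figure D2:**
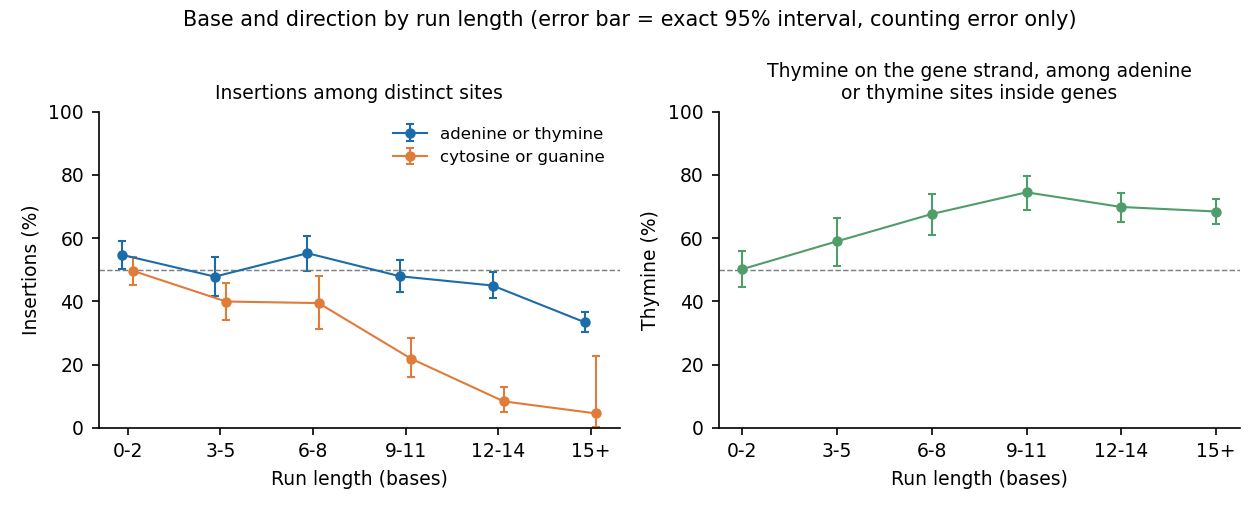
Left, percentage of insertions among distinct one-base indel sites by run length in bases, for adenine or thymine and for cytosine or guanine. Right, percentage of adenine or thymine sites inside protein-coding genes that read as thymine on the gene strand; points are shares over distinct sites, error bars exact 95% binomial intervals, and the dashed line marks 50%. The class of 0 to 2 includes bases gained outside any run, which raise its insertion share by definition. The insertion share of cytosine or guanine sites falls to 4.55% at runs of 15 or more (22 sites), and the thymine share rises from 50.2% at runs of 0 to 2 bases to 74.5% at 9 to 11.

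The changed base was not symmetric with respect to gene direction. Of the 4315 sites, 3576 (82.9%) lay inside the body of a protein-coding gene, spread over 2475 genes. The gene table gives starts and ends but no exons, so exon, intron, UTR and reading frame were not determined. In genes on the forward strand with a known strand, 642 sites were T and 322 were A. In genes on the reverse strand the order turned, with 335 T and 608 A. On the strand of the gene, T was therefore the base at 66.2%, 64.9%, 64.6% and 68.0% of the A or T members in replicates 1 to 4 (848, 989, 933 and 674 members). The mean was 65.9% ± 1.51 (SD, n = 4), above 50% in 4 of 4 samples. How many T and A runs the captured regions hold on the gene strand was not counted, so 50% is again only a mark. In runs of at most 7 bases it was 57.5% ± 1.13.

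Gains and losses shared the asymmetry, since T made up 65.9% of 856 inserted and 65.3% of 1051 deleted A or T sites. The shortest runs showed no excess of T. It made up 50.2% of 319 distinct sites in runs of 0 to 2 bases (exact 95% interval 44.5 to 55.8), 67.6% of 216 in runs of 6 to 8 (60.9 to 73.8), 74.5% of 274 in runs of 9 to 11 (68.9 to 79.5) and 68.4% of 544 in runs of 15 or more (64.3 to 72.3). For C or G members the share that read as C on the gene strand was 53.7% ± 1.44.

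Members were shared between samples less than SNVs. Of the distinct sites, 473 (11%) were confident in all 4 samples, 706 in 3, 953 in 2 and 2183 (50.6%) in 1, against 18.5% of SNV sites in all 4 and 32.1% in 1. Within a sample, members confident in all 4 samples made up 22.8%, 21%, 22.2% and 28.7%, and SNVs 28.0%, 29.8%, 30.9% and 44.5%. The mean difference was -9.60 ± 4.43 percentage points (SD, n = 4), below 0 in 4 of 4 samples. Sites confident in all 4 are by definition the same 473 members and 9472 SNVs in each sample. The 4 differences therefore vary only through the totals of the samples and are not independent results. Members confident in 1 sample alone made up 24.7%, 25.9%, 34.8% and 21%, against 14.2%, 8.70%, 24.8% and 6.21% of SNVs, a mean difference of 13.1 ± 3.47 points, above 0 in 4 of 4.

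The gap to SNVs was nearly closed in short runs. In runs of at most 7 bases, 30.8%, 29.9%, 30.2% and 41.0% of members were confident in all 4 samples, and the mean difference from SNVs shrank to -0.322 ± 2.57 points. The share confident in 1 sample was 12%, 10.3%, 24.2% and 7.56%, a difference of 0.0369 ± 1.81 points. Over distinct sites, 182 of 1003 (18.1%) in runs of 0 to 2 bases were confident in all 4 samples, but 12 of 910 (1.32%) in runs of 15 or more. In the latter class 665 (73.1%) were confident in a single sample.

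**Figure D3:**
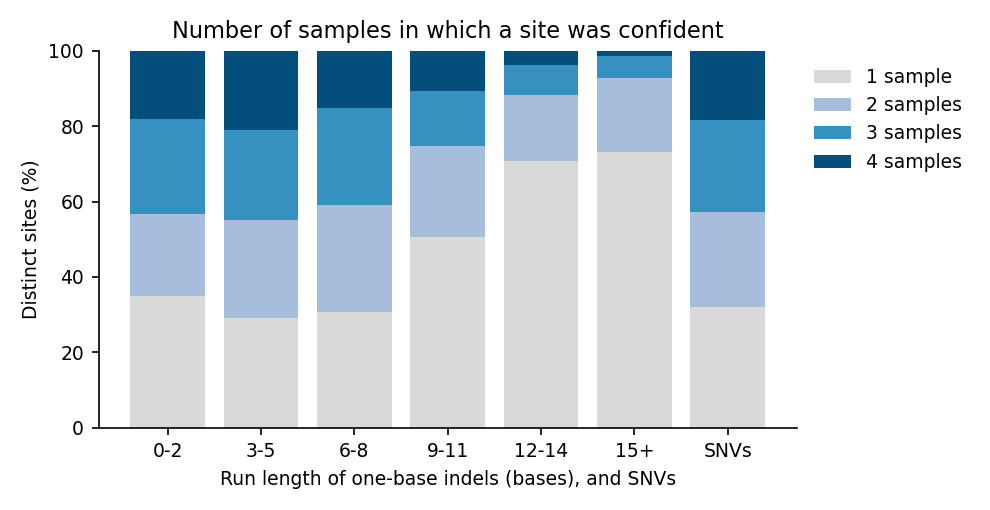
Percentage of distinct sites (y axis) confident in 1, 2, 3 or 4 samples, for one-base indels in 6 classes of run length in bases and for SNVs (x axis). Runs of up to 8 bases resemble the SNVs in the last bar, while 70.7% and 73.1% of sites in runs of 12 to 14 and of 15 or more were confident in 1 sample.

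Members confident in 1 sample were long-run, A- or T-rich and of low fraction. Their median run was 13, 13, 11 and 13 bases in replicates 1 to 4, against 4 bases for the sites confident in all 4. A or T made up 74.1%, 80.7%, 69.3% and 69.7% of them, against 57.7% of sites confident in all 4 (mean difference 15.7 ± 5.28 points, above 0 in 4 of 4 samples). In runs of at most 7 bases this difference was 0.413 ± 9.36 points. Their insertion share of 36.5%, 44.2%, 42.2% and 33.5% lay on both sides of the 42.7% of sites confident in all 4 (exact sign-flip permutation p = 0.375, adjusted p = 0.425). Depth moved with sharing too. The median depth of members confident in 1 sample was 23, 21, 29 and 19 reads, and of those confident in all 4 it was 61, 58, 65 and 59; its part in the result was not tested.

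Confident in 1 sample did not mean absent from the others. Of these 2183 sites, 841 (38.5%) had the same allele listed by a caller in another sample below the thresholds, and 247 had another call within 5 bases there. The remaining 1095 had no call within 5 bases in any other sample. In replicate 3, 196 of the 237 one-sample members in runs of up to 5 bases had no call elsewhere, and 122 of the 196 lay on chromosome 9. The counts were 55 of 120 in replicate 1, 38 of 100 in replicate 2 and 10 of 56 in replicate 4. Replicate 3 also carries a large SNV block of its own on that chromosome (6042 SNVs, against 1882, 2333 and 112).

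Some runs had a gained base as the confident call in one sample and a lost base in another. At 68 of 4247 runs a base was gained in at least 1 sample and lost in at least 1 other. At none of them were both confident in the same sample. Each VarScan2 call names 1 variant allele, so the rule may not allow both, and the other length can be present but unlisted. These runs were 10 to 31 bases long (median 16), and 62 of the 68 were A or T. In Idh1, the gene of cytosolic isocitrate dehydrogenase, the run of 16 A gained a base in 20 of 53 reads of replicate 1 (37.7%), 15 of 47 of replicate 3 (31.9%) and 21 of 56 of replicate 4 (37.5%), and lost one in 13 of 53 reads of replicate 2 (24.5%). In Nf1, which encodes a negative regulator of RAS, the run of 31 T gained a base in 10 of 34 reads of replicate 3 (29.4%) and lost one in 10 of 31 of replicate 2 (32.3%). It is the longest run among the members named here.

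Allele fractions over the full depth were lower than those of SNVs in every sample. The median member fraction was 0.444, 0.455, 0.404 and 0.511 in replicates 1 to 4, and the SNV median 0.500, 0.500, 0.429 and 0.767. The mean difference was -0.0954 ± 0.108 (SD, n = 4), below 0 in 4 of 4 samples. With the fraction taken over reference plus variant reads, an alternative added after the data were seen, it was -0.0389 ± 0.0994 and no longer on one side in all samples (exact sign-flip permutation p = 1.0). In runs of at most 7 bases the difference turned to 0.0452 ± 0.0592, above 0 in each sample, with medians of 0.510, 0.511, 0.455 and 0.90. In runs of 12 bases or more the medians were 0.316, 0.320, 0.330 and 0.340. No member had a SpeedSeq fraction under 0.20, although the rule asks only for 0.10, so fractions near that limit are biased upward. Insertions had slightly higher medians than deletions (mean difference 0.0250 ± 0.0201, above 0 in 4 of 4 samples). The samples no longer lay on one side in runs of at most 7 bases (0.0138 ± 0.0307, with replicate 3 at -0.0249) or over reference plus variant reads (0.0273 ± 0.0660).

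SNVs of the same genome region served to read the fraction by run. Regions were 2 Mb bins with at least 10 confident SNVs, called upper-range where at least 90% of the SNVs had a fraction of 0.65 or more, the range of homozygous sites, and lower-range where at most 10% had. In upper-range bins, members in runs of 0 to 5 bases had medians of 0.979, 1.0, 0.779 and 0.981 in replicates 1 to 4, beside SNV medians of 1.0, 1.0, 0.80 and 1.0. Members there in runs of 12 to 14 had 0.623, 0.638, 0.528 and 0.636, and those in runs of 15 or more 0.381, 0.40, 0.324 and 0.438 (18, 17, 12 and 25 members). In lower-range bins, runs of 0 to 5 bases had medians of 0.459, 0.471, 0.388 and 0.455, beside SNV medians of 0.460, 0.469, 0.382 and 0.462. In these bins the fraction of short-run members lay near that of the SNVs around them, replicate 3 included, and that of long-run members below it when the full depth was counted. Over reference plus variant reads alone, runs of 15 or more had medians of 0.585, 0.606, 0.597 and 0.70 in upper-range bins, still below the SNVs. In lower-range bins they had 0.448, 0.50, 0.50 and 0.570, below the SNV median in replicate 1 and above it in the others.

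Bins with fewer than 10 SNVs held 26.8%, 28.3%, 25.5% and 30.5% of the members but only 767, 722, 728 and 741 SNVs. The mean share of members in dense bins was 72.2% ± 2.15, against 97.4% ± 0.591 of SNVs, which themselves define those bins (difference -25.2 ± 1.71 points; -5.15 ± 1.08 in runs of at most 7 bases). The members of the sparse bins differed by run length. In runs of 0 to 5 bases there were 72, 74, 72 and 83, with median fractions of 0.995, 0.987, 0.980 and 0.981. These lay above the SNVs of the same bins, whose medians were 0.50, 0.538, 0.420 and 0.535, and stayed near 1.0 in replicate 3 too, whose upper-range SNVs lie at 0.80. Of their 111 distinct sites, 58 were confident in all 4 samples, 49 of them at 0.90 or more in every sample where the bin was sparse. Runs of 6 to 8 held 13, 13, 11 and 8 members, with medians of 0.769, 0.704, 0.418 and 0.700. Runs of 9 to 11 held 48, 67, 64 and 66, with medians of 0.351, 0.364, 0.327 and 0.355. In runs of 12 or more there were 422, 484, 396 and 345, with medians of 0.30, 0.303, 0.312 and 0.318. Of the 1284 distinct sites in these longest runs, 966 (75.2%) were confident in 1 sample.

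**Figure D4:**
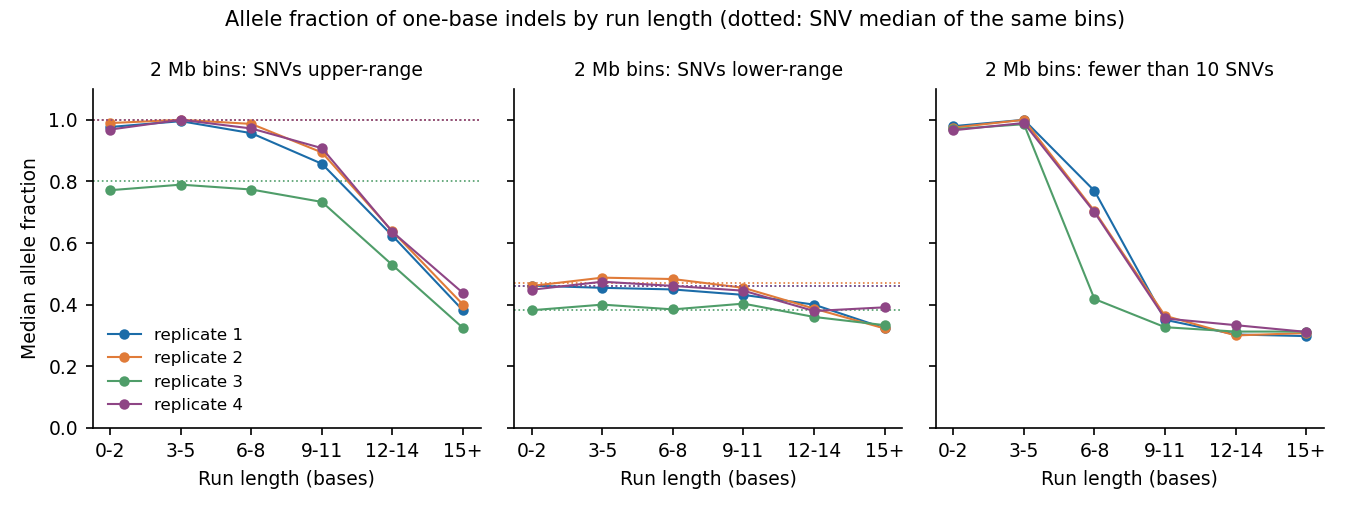
Median allele fraction of one-base indels (y axis) by run length in bases (x axis) in each of 4 samples, in 2 Mb bins whose SNVs are upper-range, lower-range or fewer than 10; dotted lines mark the SNV median of the upper-range and lower-range bins. Short-run fractions lie near the SNV level in upper-range and lower-range bins and near 1.0 in bins with fewer than 10 SNVs, and all lie between 0.298 and 0.438 at runs of 15 or more in the 3 kinds of bin.

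Reads that carried neither the reference nor the called length rose with the run. In runs of 0 to 2 bases the median share of such reads was 0.738% ± 0.634 of the depth (SD, n = 4), in runs of 9 to 11 it was 7.97% ± 0.698, and in runs of 15 or more 29.1% ± 1.33. These include reads that end inside the run and reads with further lengths, which the deposited fields do not separate. The median depth fell over the same classes from 43.0 ± 3.56 to 27.8 ± 1.5 reads. VarScan2, whose fraction rests on its own counts of reference and variant reads, gave 0.367 ± 0.0136 in runs of 15 or more. SpeedSeq gave 0.315 ± 0.00708 there over the full depth. The callers do not leave out the same reads. In upper-range bins, runs of 15 or more had VarScan2 medians of 0.480, 0.511, 0.477 and 0.545 in replicates 1 to 4. The SpeedSeq medians over reference plus variant reads were 0.585, 0.606, 0.597 and 0.70. Over all members the median difference between callers was 0.00917 ± 0.00369, with SpeedSeq higher in 4 of 4 samples.

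Variant reads were balanced between strands in sum, but single sites were often read from 1 strand. Forward reads made up 50.7%, 51.0%, 50.9% and 49.9% of all variant reads (exact sign-flip permutation p = 0.25 against 50%, adjusted p = 0.304). In runs of 12 or more the forward share differed by the base on the forward strand. At A members its median was 33.3% to 55.2% for variant reads and 37.5% to 50% for reference reads. These medians lay nearer 50% than those at T, G or C in each replicate, so A did not mirror T. The median forward share of variant reads was 80.0%, 78.9%, 80.0% and 76.4% at T members and 96.4%, 100%, 100% and 90.0% at G members, but 34.8%, 21.4%, 0% and 23.5% at C members. Reference reads at these sites were skewed in the same direction, with medians of 79.3% to 85.7% at T, 96.4% to 100% at G and 0% to 18.2% at C. A few sites of very high depth weigh on the sum over all members: members with a depth over 500 numbered 43, 35, 43 and 35 and carried 51.6%, 33.3%, 43.1% and 42.9% of the variant reads. Sites with all variant reads on 1 strand made up 22.2%, 29.8%, 33.0% and 29.8% of members, against 10.8%, 16.3%, 19.6% and 16.2% of SNVs. The difference of 13.0 ± 1.04 points was above 0 in 4 of 4 samples and was 6.48 ± 1.29 in runs of at most 7 bases. The median depth was 33 to 38 reads at members and 46 to 55 at SNVs, and the part of depth in this difference was not tested. In runs of 15 or more, 41.6% ± 6.28 of members were read from 1 strand.

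Both callers were required, which shaped the set. Of the one-base indels that passed in SpeedSeq, VarScan2 passed 93.3%, 92.0%, 95.4% and 90.3%, close to the 93.7%, 91.7%, 95.1% and 85.3% of SNVs (mean difference 1.27 ± 2.49 points, exact sign-flip permutation p = 0.5). In the other direction SpeedSeq passed 57.5%, 56.9%, 57.8% and 53.0% of the VarScan2 calls, against 79.5%, 82.0%, 83.7% and 81.1% of SNVs. The 1533, 1703, 1554 and 1457 one-base indels that VarScan2 alone passed had median fractions of 0.333, 0.318, 0.311 and 0.318, and 46.4%, 55.3%, 61.0% and 57.2% of them had all variant reads on 1 strand. Near the quality limit, and summed over the 4 samples, 600 member calls with a quality under 40 had a median fraction of 0.30 and a median run of 13 bases, and 679 calls under 20 that met the other terms had 0.283 and 14 bases. At the depth limit, 439 member calls with a depth of 10 or 11 in the shallower caller had a median fraction of 0.545 and a median run of 6 bases, and 529 calls at 8 or 9 had 0.625 and 7 bases.

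Genes of leukaemia and DNA repair were then read from 4 lists, chosen with earlier results of these data known. Of 87 genes, 21 held 37 members (15 insertions and 22 deletions); 22 of these lay in runs of 9 bases or more, 23 were confident in 1 sample and 1 in all 4. Of all 21883 protein-coding genes, 2475 (11.3%) held a member; gene length and captured length were not taken into account. The list member confident in all 4 samples was in Asxl1, a polycomb-associated gene mutated in myeloid disease. A T was lost there from a run of 2 at position 153398010 of chromosome 2. The loss was read in 26 of 66 reads of replicate 1 (39.4%), 62 of 62 of replicate 2 (100%), 24 of 90 of replicate 3 (26.7%) and 57 of 58 of replicate 4 (98.3%). Replicates 2 and 4 were thus at the homozygous level and replicates 1 and 3 well under it.

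In the RAS and JAK-STAT list, 2 of 25 genes held 8 members. Nf1 held the run of 31 T above and deletions in runs of 13 and 17 T at 28.0% to 34.5%. Kit, the receptor that the sort selects for, held 4 members. An A gained in a run of 9 was read at 75% (9 of 12), 87.0% (20 of 23) and 30.8% (4 of 13) in replicates 1, 2 and 3. A T lost from a run of 11 was read at 72.2% (13 of 18), 86.2% (25 of 29) and 42.3% (11 of 26) in the same replicates. In SpeedSeq the order of the 3 replicates was the same at both sites, at depths of 12 to 29. In VarScan2 it was not. That caller gave 100%, 90.0% and 30.8% at the run of 9, and 72.2%, 89.3% and 42.1% at the run of 11. The other 2 Kit members were a T lost from a run of 9 in replicate 2 (11 of 11 reads) and an isolated C lost in replicates 3 (7 of 15) and 4 (14 of 14), all 3 read on the reverse strand.

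In the list of myeloid drivers and splicing factors, 4 of 18 genes held 6 members, 5 of them in runs of 9 or more. Idh1 also had an A lost from a run of 18 in 6 of 25 reads of replicate 3 (24.0%). Among the others were the losses in Cebpa (11 of 34 reads of replicate 2, 32.4%) and Idh2 (8 of 21 of replicate 4, 38.1%). Sf3b1, a splicing factor gene, had a T gained in a run of 3 that made up all 21, 11 and 12 SpeedSeq reads in replicates 2, 3 and 4, all on the reverse strand. VarScan2 gave 100%, 62.5% and 68.8% there, so the callers differ at this site.

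In the list of polycomb, chromatin and cohesin genes, 9 of 24 genes held 15 members. Of these, 12 were confident in 1 sample, as were 50.6% of all distinct sites. Ezh2 itself held none. Jarid2, of the same polycomb complex, had an A gained outside any run in 24 of 25 reads of replicate 2 (96.0%). Suz12, another subunit, had a T gained in a run of 15 in 7 of 22 reads of replicate 2 (31.8%), all on the reverse strand. The cohesin gene Stag1 held 4 members and the histone methyltransferase gene Kmt2c 3, all in replicate 3. Those of Stag1 lie between positions 100692931 and 100944971 of chromosome 9, at fractions of 33.3% to 41.9%. On that chromosome replicate 3 carried 6042 SNVs, against 1882, 2333 and 112 in replicates 1, 2 and 4. Those of Kmt2c lie between positions 25281459 and 25450888 of chromosome 5. Neighbouring sites may be inherited together, which was not tested. The best covered were a C gained outside any run in Stag1 (49 of 117 reads, 41.9%) and a T lost from a run of 10 there (44 of 108, 40.7%). The gain in the run of 15 T of Ep300, a histone acetyltransferase gene, was read at 30.8%, 29.8% and 35.6% in replicates 1, 2 and 4, and an isolated T of that gene was lost in 12 of 19 reads of replicate 4. Kmt2a had a T lost from a run of 3 at 39.1%, 57.6% and 24.1% in replicates 1 to 3. Kmt2d had a G gained in a run of 8 in 11 of 15 reads of replicate 3, and Ctcf a T lost from a run of 16 in 5 of 17 reads of replicate 4.

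Among 20 DNA repair genes, 6 held 8 members. Pole, the catalytic subunit of a replicative polymerase, had an A gained in a run of 1 in 73 of 137 reads of replicate 1 (53.3%), 54 of 113 of replicate 2 (47.8%) and 52 of 129 of replicate 3 (40.3%). Msh3, a mismatch repair gene, had a C lost from a run of 7 in 27 of 62 reads of replicate 1 (43.5%), 21 of 55 of replicate 3 (38.2%) and 24 of 63 of replicate 4 (38.1%). These 6 values, between 38.1% and 53.3%, rest on 55 to 137 reads each. Msh3 also had a T lost from a run of 17 in 9 of 39 reads of replicate 2 (23.1%). The repair kinases Atm and Atr each held 1 member in a run of 18 T, read from a single strand (6 of 29 and 5 of 14 reads). The exonuclease gene Exo1 had an A gained in a run of 1 in 36 of 95 reads of replicate 1 (37.9%) and 34 of 71 of replicate 2 (47.9%). A second Pole member, a T gained in a run of 2, was read in 7 of 18 and 9 of 14 reads of the same replicates.

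Outside the lists, members confident in all 4 samples with the most variant reads lay at sites of extreme depth. Of 6 such members, 3 were in Sfi1, a gene of the centrosome: a C gained in a run of 2 had 7544, 6157, 6903 and 6843 reads in replicates 1 to 4 and fractions of 97.2%, 95.1%, 96.8% and 97.3%. The other 2 in Sfi1 had fractions of 91.9% to 94.9% and 82.5% to 86.7%. The remaining 3 were in the zinc finger gene Zfp978 (58.3% to 64.3%), the vomeronasal receptor gene Vmn2r117 (67.1% to 71.4%) and the overlapping genes C130026I21Rik and Gm38510 (30.3% to 32.6%). The 4 samples lie within 6 percentage points of each other at each site, while depths of 743 to 7544 reads stand beside a median of 33 to 38. Reads of near-identical copies could be counted at one place here, so these fractions are uncertain.

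Members called in 1 sample alone, with no call elsewhere, were examined by the most variant reads. Several are neighbours and may not be independent. Those of replicate 1 all lie between positions 118893259 and 121046057 of chromosome 4. Those of replicate 2 all lie between positions 18171207 and 21011750 of chromosome 17. In replicate 3, Afg3l2 and Cep192 share a chromosome. In replicate 1 they were losses in the olfactory receptor genes Olfr1330 (145 of 348 reads, 41.7%) and Olfr1329 (143 of 341, 41.9%) and a gain in the collagen gene Col9a2 (69 of 123, 56.1%). In replicate 2 they were losses in Vmn2r100 (160 of 320, 50%), Vmn2r92 (58 of 131, 44.3%) and Zfp160 (49 of 113, 43.4%). In replicate 3 they were in Afg3l2 (143 of 188, 76.1%), the amino acid transporter gene Slc38a1 (142 of 176, 80.7%) and Cep192 (129 of 169, 76.3%), near the upper-range SNV level of 0.80 of that sample. In replicate 4 they were losses in Olfr272 (35 of 76, 46.1%), Agk (29 of 94, 30.9%) and the arginine methyltransferase gene Prmt3 (27 of 103, 26.2%). The last 2 lie in runs of 13 A and 16 T, while 9 of the other 10 lie in runs of at most 9.

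Members were also placed in windows around gene starts and in microRNA hairpins. The share of all variants in these regions was not computed, so the counts describe no trait of one-base indels. Within 250 bases before to 50 after a RefSeq gene start there were 37 sites at 38 genes, and none of the 4315 sites lay in any of 1005 microRNA hairpins. The reference allele was identical to the RefSeq sequence in 37 of 37 windows that held it whole. At 3 of these sites the indel was confident in all 4 samples. The G gained in the run of 3 before N4bp3, 46 bases upstream of its start, was read at 96.9%, 86.7%, 100% and 100% in replicates 1 to 4, and the C gained 30 bases upstream of Arpp19 at 96.3%, 92.9%, 100% and 90.0%. The C lost from the run of 5 before Gm14199 was read at 43.3%, 100%, 35.4% and 98.1%. At N4bp3 and Arpp19 the 4 samples were alike, and at Gm14199 replicates 2 and 4 stood apart from 1 and 3, as at Asxl1 on the same chromosome.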

How the data were processed

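Exome libraries of 4 samples of 1 group were captured with an Agilent SureSelect mouse kit and read as 100-base pairs on a BGISEQ500, per the labels' protocols. Per the file headers, SpeedSeq ran freeBayes 0.9.21 on mm10 separately for each sample, and the deposited quality is its score on the Phred scale. The deposited VarScan2 tables give reference and variant reads. The VarScan2 release is not given in the sources used here, nor are the aligner and the treatment of duplicates. SpeedSeq alleles were trimmed of shared bases, substitution haplotypes split into single bases, and matched to VarScan2. The VarScan2 fraction is variant reads over reference plus variant reads, each as VarScan2 counts them, and its depth the listed coverage. The same ratio of SpeedSeq's own counts was tried as an alternative. The run was read from the SpeedSeq reference allele. Genes come from a RefSeq table of GRCm38.p6, the build of mm10: 21883 protein-coding genes, 17491 with a strand. Shares have exact (Clopper-Pearson) 95% intervals, and tests are exact sign-flip permutations over 4 samples with Benjamini-Hochberg adjustment (Python 3.11.15, pandas 2.3.3, scipy 1.17.1). The trimming and run code was tested on simulated data. The members, gene lists and tests were chosen with earlier results of these data known. Named genes are members in the lists, the 3 insertions and 3 deletions confident in all 4 samples with the most variant reads, and per sample the 3 with no call within 5 bases elsewhere, reads on both strands and the most variant reads, all inside protein-coding genes. One list member is not reported here by name.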

Additional observations from a re-analysis of the deposited data

Results flagged for a closer look

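Of 19 per-sample quantities, 3 had 1 sample far from the other 3; chance gives about 1 in 20 such results, and the quantities are not independent. In replicate 4 the median fraction of one-base indels lay below that of SNVs by a difference of -0.256, against -0.0556 to -0.0249 in the other samples; 52.8% of its SNVs and 40.2% of its one-base indels were at 0.65 or more, against 24.2% to 27.5% and 20.6% to 22.3% elsewhere. In replicate 1 the one-strand share exceeded that of SNVs by 11.5 percentage points, against 13.5 to 13.7 in the others. In replicate 4 the share of SpeedSeq calls that VarScan2 passed was higher for one-base indels than for SNVs by 4.96 points, against -0.447 to 0.319.

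Outside the autosomes, 112 one-base indels on chromosome X passed the same filter (37, 26, 28 and 21 in replicates 1 to 4), with a median run of 13.5 bases and a median fraction of 0.325.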

How the results depend on the processing

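Of 221 re-computed values, 205 kept direction and side of the threshold, 10 turned direction and 6 moved. No test can pass 0.05 with 4 samples, so keeping a side says nothing about stability. No paired analysis was possible because the samples form 1 group. The mean count of 2025 was 1151 at a depth of 30 and 3587 with VarScan2 alone. The median run, 6.5 bases on average, was 5.25 at a fraction of 0.30, 5.75 at a depth of 30, 5.0 at a quality of 100 and 7.5 at a mapping quality of 50. The insertion share against triplet indels turned from -0.637 points to 0.776 at a fraction of 0.30, 0.847 at a quality of 100 and 5.54 in runs of at most 7 bases, and ranged from -1.58 to 1.15 with samples left out in turn, the latter without replicate 4. Against longer indels it was -2.12 at a depth of 30. The caller overlap difference was -2.82 at a fraction of 0.30. The insertion share of members in 1 sample less that in all was 1.24 with VarScan2 alone and 0.239 in short runs. In short runs the fraction difference from SNVs was 0.0452 and the forward share less 50% was -0.0219. The run limit and the fraction over reference plus variant reads were chosen after the data were seen; the latter gave -0.0389 for the difference from SNVs. In short runs the insertion share less 50% was -0.891. The cause of these changes was not tested. Calls near the quality limit lay in runs of 13 to 14 bases and those near the depth limit in runs of 6 to 7. Variants under a fraction of 0.20 are outside what both callers show.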

Other observations

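The number of one-base indels per 100 SNVs varied between chromosomes and samples. SNVs are the denominator of this ratio, so it can be high merely where they are few, and the examples were picked. Chromosome 9 of replicate 4 held 31 one-base indels beside 112 SNVs (27.7 per 100 SNVs), whereas that of replicate 3 held 358 beside 6042 (5.93 per 100). Chromosome 14 of replicate 4 held 20 beside 211 (9.48 per 100). On chromosome 13, replicate 2 held 84 beside 714 (11.8 per 100) and replicate 1 138 beside 2597 (5.31 per 100). By indel length, 1 base accounted for 59.7% ± 1.26 of confident indels (SD, n = 4), 2 bases for 14.6% ± 0.104, 3 for 7.31% ± 0.446 and 4 for 6.12% ± 0.236.

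Pairs of samples shared 29.7% to 38.0% of the one-base indels found in either, and replicates 1 and 2, at 38.0%, shared the most (1192 sites, 57.5% of those of replicate 1 and 52.9% of those of replicate 2). SNVs of the same pair were shared at 57.3%, and of the other pairs at 39% to 41.8%.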
